A study of Mus musculus with 8 samples.

Results

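Protocadherins form the largest group of cadherin cell-adhesion proteins of the brain, and their expression was measured here in the hippocampus of mice labelled Slm2KO and mice labelled WT. The members are the rows of the deposited gene table whose symbol starts with Pcdh, with the row of the highest mean kept where a symbol had several rows. The rule gave 34 rows out of 56575 features. They were 21 beta protocadherin genes, 12 non-clustered protocadherin genes and 1 row that joins 36 alpha and gamma protocadherin symbols. Each group held 4 libraries, labelled Slm2KO (a knockout of SLM2) and WT, all made from total RNA of the hippocampus of C57BL/6 mice aged 8 weeks. The labels give no allele for the knockout, do not say that each library came from a different animal and give no sex. The design asked how gene expression and splicing differ between the genotypes, and the gene-level values are described here.

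Protocadherins are single-pass membrane proteins with a row of extracellular cadherin repeats. The alpha, beta and gamma genes lie side by side in 3 arrays on mouse chromosome 18. In the alpha and gamma arrays each variable exon has its own promoter and is spliced to constant exons shared by the array, whereas each beta gene is a single large exon. Single neurons choose small sets of these promoters, and the encoded proteins bind like proteins on other cells, which lets a neurite recognise its own branches. The non-clustered genes are scattered over the genome and are grouped by sequence into delta1 (Pcdh1, Pcdh7, Pcdh9, Pcdh11x), delta2 (Pcdh8, Pcdh10, Pcdh17, Pcdh18, Pcdh19) and others (here Pcdh12, Pcdh15 and Pcdh20). Several delta2 proteins bind the WAVE actin-regulating complex. SLM2, encoded by Khdrbs3, belongs to the STAR family of RNA-binding proteins and regulates splicing in neurons.

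The unit throughout is the normalised read count deposited by the authors, a read number divided by a size factor of its library and not by gene length. Libraries held 104020058 to 125985224 reads. Khdrbs3, the gene of the targeted protein, had 29749 ± 3040 normalised reads in the Slm2KO-labelled libraries and 22051 ± 2387 in the WT-labelled ones (SD, n = 4 each), so the row did not mark the knockout by a lower level. The groups are therefore named by their labels throughout. Khdrbs2, the gene of the related protein SLM1, had 2481 ± 290.4 normalised reads in Slm2KO-labelled libraries and 1096 ± 98.4 in WT-labelled ones, and was the 1 feature past the threshold in the whole comparison (limma, adjusted p = 0.00761, log2 fold change 1.18). Hippocampal neuron markers were present in each library, with a summed value of 435903 to 594791 in Slm2KO-labelled libraries and 506589 to 590259 in WT-labelled ones, and none of the 12 was at 0. Libraries stood apart in the choroid plexus epithelium, a neighbouring tissue. The 10 markers of this epithelium summed to 520294 to 3101820 in Slm2KO-labelled libraries and 340351 to 2443820 in WT-labelled ones, with the highest sum in library Slm2KO 4, the lowest in WT 2 and none of the 10 at 0; 6 had a log2 fold change above 0 and 4 below, with a median of 0.06. Fewer cells of a type and less RNA per cell cannot be told apart in such bulk tissue. Libraries Slm2KO 3, Slm2KO 4 and WT 4 held Y-linked reads and the others did not beyond a few reads.

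Promoters of 4 genes are shown first because these genes had the highest mean level per length among the non-clustered genes looked up. Of the 4, neighbours in level below Pcdh20 overlapped in their libraries, and order within a library was not compared. Each run is the 250 bases before the RefSeq start of the gene (GRCm38.p6, the assembly of mm10), 5′ to 3′ on the strand of the gene. Capitals mark each CCAAT box, on either strand (ATTGG on the other), and each TATAAA, on either strand (TTTATA on the other). The windows are chr14:88471397-88471646 on the minus strand for Pcdh20, chr14:93890670-93890919 on the minus strand for Pcdh9, chr14:79771313-79771562 on the minus strand for Pcdh8 and chr14:84443313-84443562 on the plus strand for Pcdh17.
Pcdh20: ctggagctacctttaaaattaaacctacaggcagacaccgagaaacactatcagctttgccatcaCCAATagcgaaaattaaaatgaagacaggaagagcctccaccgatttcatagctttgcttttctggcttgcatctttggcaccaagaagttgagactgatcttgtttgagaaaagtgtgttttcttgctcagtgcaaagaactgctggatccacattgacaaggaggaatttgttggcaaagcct
Pcdh9: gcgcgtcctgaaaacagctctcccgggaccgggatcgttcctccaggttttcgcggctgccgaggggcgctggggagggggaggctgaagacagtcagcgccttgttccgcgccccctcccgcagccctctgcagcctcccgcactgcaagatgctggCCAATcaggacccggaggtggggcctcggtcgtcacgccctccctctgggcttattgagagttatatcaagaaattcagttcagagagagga
Pcdh8: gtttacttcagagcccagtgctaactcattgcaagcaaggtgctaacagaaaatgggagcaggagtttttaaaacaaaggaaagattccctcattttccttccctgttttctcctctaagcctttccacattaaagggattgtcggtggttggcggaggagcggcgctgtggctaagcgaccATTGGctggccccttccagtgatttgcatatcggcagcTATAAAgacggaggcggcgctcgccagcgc
Pcdh17: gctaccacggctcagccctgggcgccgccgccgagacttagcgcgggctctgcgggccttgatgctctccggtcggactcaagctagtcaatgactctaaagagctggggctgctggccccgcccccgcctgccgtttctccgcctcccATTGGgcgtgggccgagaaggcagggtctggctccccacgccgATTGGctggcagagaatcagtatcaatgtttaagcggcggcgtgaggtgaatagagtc
Each of the 4 windows holds CCAAT, at 2 places in Pcdh17, and Pcdh8 also holds TATAAA near its start. Among 32536 distinct windows of this length in the RefSeq table, 33.8% hold CCAAT and 12.3% hold TATAAA. Of 10 non-clustered genes looked up, 9 had a window, and 8 of the 9 hold CCAAT and 2 hold TATAAA. The count of CG pairs differs more: 3 in the Pcdh20 window, 18 in Pcdh9, 11 in Pcdh8 and 21 in Pcdh17, beside a median of 6 over all windows. A letter match describes the window and is not evidence of a site in use.

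What a row holds sets what can be said. The joined row (mm10, chr18:36694473-37841961, plus strand) carries 14 alpha and 22 gamma symbols, among them the C-type genes Pcdhac1, Pcdhac2, Pcdhgc3, Pcdhgc4 and Pcdhgc5, which are set apart from the other isoforms because neurons use them without choosing among promoters in this way. Alpha cannot be separated from gamma in it, and no C-type gene has a value of its own. The span of this row also covers the beta array, which lies between the alpha and gamma arrays, and the sources used here do not say how reads in the overlap were assigned. Of the beta genes, Pcdhb1 to Pcdhb20 and Pcdhb22 have a row each, and Pcdhb21 was not analysed here. The beta genes are near copies of each other in part. The share of a gene's 50-base stretches that also occurs in transcripts of another gene was 64.2% for Pcdhb12, whose row overlaps the antisense gene Gm37446, and 0% to 9.52% for the other 20. Without strand in the library kit, reads of Pcdhb12 and of that antisense gene cannot be told apart, although the unnamed minus-strand row at that place had a mean of only 3.92 normalised reads. Pcdh7 shares 20.4% of its 50-base stretches with 4932441J04Rik and Pcdh8 8.3% with Gm9748, so their values are uncertain to that extent.

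The non-clustered genes spanned a wide range of levels. To compare genes, values were divided by the exon length of the gene within its row (GENCODE vM21), giving normalised reads per kilobase. Pcdh20 stood first at 7117 ± 443 per kilobase in Slm2KO-labelled libraries and 7106 ± 463 in WT-labelled ones (SD, n = 4 each), and it took 33.2% of all reads of the 12 genes. Its lowest library (6503 per kilobase) lay above the highest library of the next gene (2290.1 for Pcdh9). A group of 6 followed between 1036 and 2062 per kilobase over the 8 libraries: Pcdh9, Pcdh8, Pcdh17, Pcdh1, Pcdh10 and Pcdh7. Neighbours in this group overlapped, with all libraries of 1 gene set against all of the next, and order within a library was not compared. Not all genes of the group overlapped: the lowest Pcdh9 library (1885.9 per kilobase) lay above the highest Pcdh17 library (1720.1). Below a gap, Pcdh11x (154 per kilobase), Pcdh18 (149) and Pcdh15 (142) overlapped with each other, Pcdh19 (76.6) lay below them without overlap and Pcdh12 was the lowest, at 8.85 to 18.5 per kilobase over the 8 libraries. By mean level, the 4 genes at the head of this order, Pcdh20, Pcdh9, Pcdh8 and Pcdh17, lie on chromosome 14, but Pcdh17 overlapped in its libraries with Pcdh1, and the second Pcdh1 row, not used here, stood at 3130 per kilobase. Both X-linked genes, Pcdh11x and Pcdh19, were in the lower group. Neither delta subclass kept to one end: delta1 ran between 154 and 2062 per kilobase and delta2 between 76.6 and 1765.

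**Figure D1:**
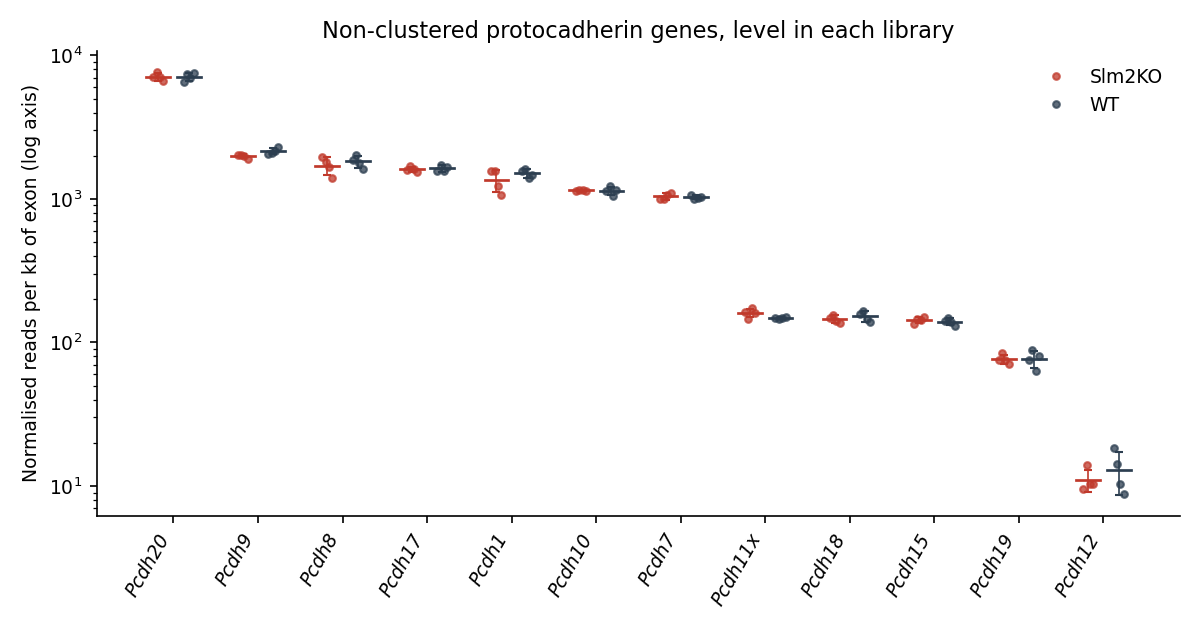
Level of the 12 non-clustered protocadherin genes in normalised reads per kilobase of exon (log axis), with 1 point per library, Slm2KO-labelled on the left of each pair and WT-labelled on the right, and the group mean with its SD. Pcdh20 lies above the rest at about 7112 per kilobase, 6 genes lie between 1036 and 2062, and the others lie at 154 and below.

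Per length of exon, the beta genes were lower at the median and closer to each other than the non-clustered ones. Their median level was 328 normalised reads per kilobase over the 8 libraries, beside 1090.0 for the 12 non-clustered genes, and the ratio of the medians was 0.287 to 0.357 in Slm2KO-labelled libraries and 0.292 to 0.327 in WT-labelled ones. The direction rests on the length used: the ratio was 0.308 over all libraries with exon length and 8.29 with the whole row span. Pcdhb9 (chr18:37400854-37403909, plus strand) was the highest at 942 ± 89.6 per kilobase in Slm2KO-labelled libraries and 928 ± 58.4 in WT-labelled ones, and its libraries did not overlap with those of Pcdhb17, the next in order at 574 ± 46.3 and 592 ± 28.6. Pcdhb14 (521 over all libraries), Pcdhb12 (508), Pcdhb20 (438) and Pcdhb16 (415) followed. Of the 20 neighbouring pairs in the order of level, 17 overlapped, with all libraries of 1 gene set against all of the next. Order within a library was not compared for the beta genes. Pcdhb1, the first gene of the array, was the lowest at 11.3 ± 3.46 per kilobase in Slm2KO-labelled libraries and 14.4 ± 5.62 in WT-labelled ones, and the next lowest was Pcdhb4 at 169. Levels differed by 72.5-fold between the lowest and the highest beta gene, against 592-fold over the non-clustered genes. Without Pcdhb1 the beta genes differed by 5.54-fold. The 592-fold still includes Pcdh12, the lowest non-clustered gene, so it is not the counterpart of the 5.54-fold. The next lowest non-clustered gene, Pcdh19, stood at 76.6 per kilobase and the highest, Pcdh20, at 7112. Level and position along the array had a Spearman correlation of 0.545 over 21 genes and 0.474 without Pcdhb1. Both correlations are descriptions only, since the genes share sequence, libraries and array. Levels did not peak at the end of the array, as the highest gene, Pcdhb9, lay inside it. The last gene in the table, Pcdhb22, stood at 341 per kilobase, and Pcdhb19 at 228.

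**Figure D2:**
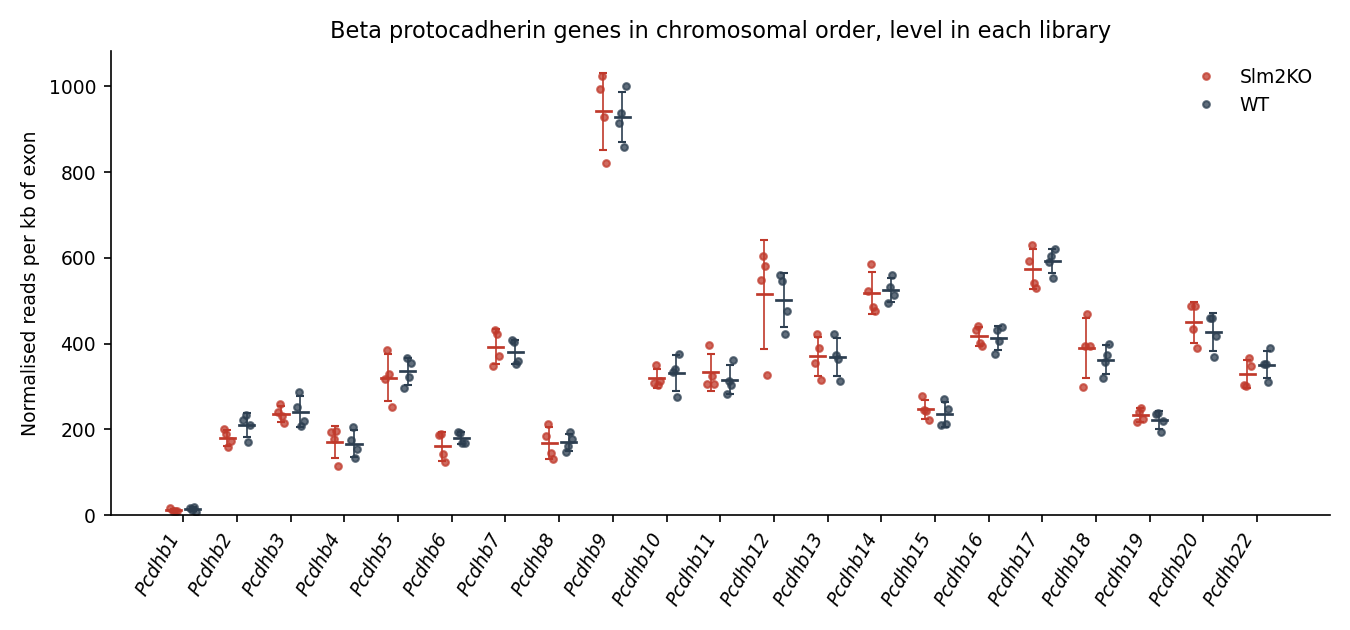
Level of the 21 beta protocadherin genes in normalised reads per kilobase of exon, in their order along the array, with 1 point per library, Slm2KO-labelled on the left of each pair and WT-labelled on the right, and the group mean with its SD. Pcdhb9 stands at about 935 per kilobase and Pcdhb1 at 12.9, and the groups overlap at each gene.

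The joined alpha and gamma row took more reads than all other members together in 6 of the 8 libraries, not in Slm2KO 4 or WT 3. It had 157153, 155055, 146245 and 120012 normalised reads in Slm2KO 1 to 4, against 150362, 157677, 135179 and 150366 in WT 1 to 4. The 12 non-clustered genes summed to 117889, 121929, 116653 and 110298 in Slm2KO 1 to 4, against 114658, 123899, 114936 and 121158 in WT 1 to 4. The 21 beta genes summed to 26820, 29151, 27406 and 24029.5 in Slm2KO 1 to 4, against 26655, 27998, 24965 and 27305 in WT 1 to 4. In each of the 3 sums the lowest library was Slm2KO 4, and the groups overlapped. Per length, the joined row had 1295 ± 153 reads per kilobase in Slm2KO-labelled libraries and 1329 ± 84.7 in WT-labelled ones, over 111646 bases of exon. Those bases pool 35 of the 36 genes, and the constant exons are shared by the isoforms of an array, so this is not the level of any 1 isoform. The ratios between the classes had close means in the 2 groups. The beta sum was 0.230 ± 0.00932 of the non-clustered sum in Slm2KO-labelled libraries and 0.225 ± 0.00625 in WT-labelled ones. The joined row was 1.24 ± 0.105 and 1.25 ± 0.0572 times the non-clustered sum. By library this last ratio ran from 1.09 in Slm2KO 4 to 1.33 in Slm2KO 1.

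**Figure D3:**
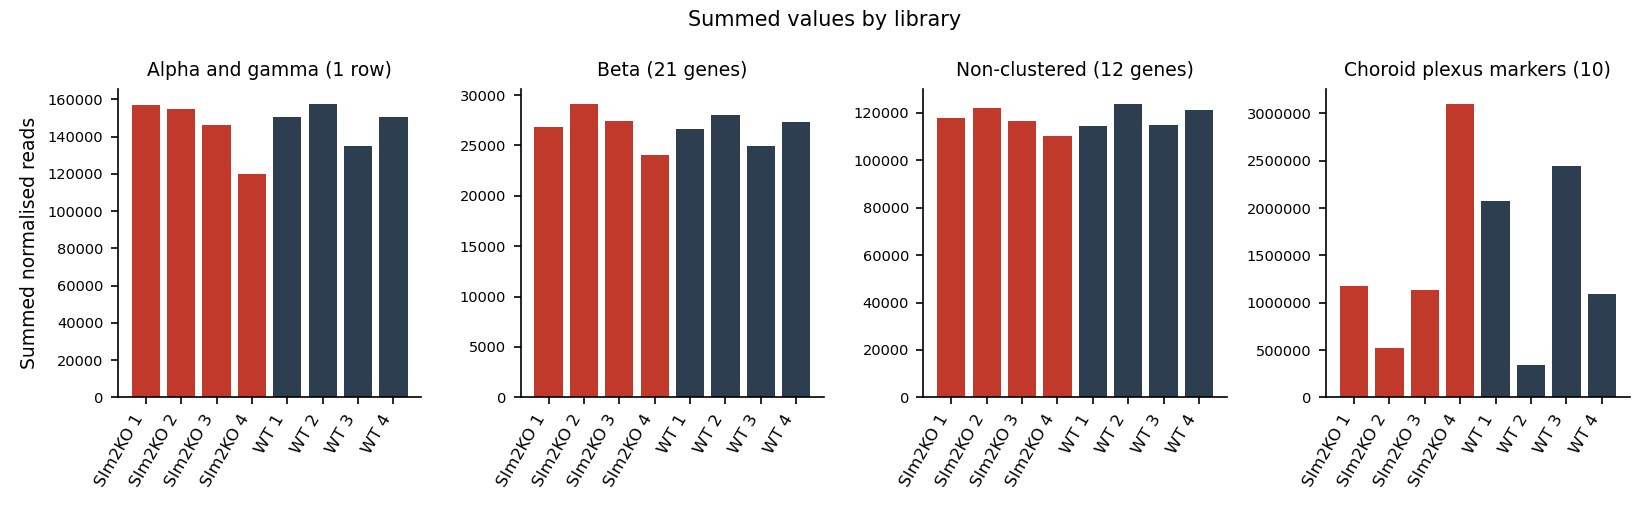
Summed normalised reads of the joined alpha and gamma row, the beta genes, the non-clustered genes and the 10 choroid plexus markers, 1 bar per library, Slm2KO-labelled on the left and WT-labelled on the right of each panel. Slm2KO 4 is the lowest library in the 3 protocadherin panels and the highest for the markers.

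No protocadherin gene differed between the genotype labels past the threshold. All 34 members passed the filter on low values (a mean of at least 10), and 0 of 34 had an adjusted p under 0.05 in limma, beside 0.0039% of the 25667 features tested. edgeR's quasi-likelihood test on the recovered reads called 0 of 34 beside 0.0039% of features, and DESeq2 called 0 of 34 beside 0.0351%. At an unadjusted p under 0.05 there was 1 member in limma, beside 3.52% of features, 1 in edgeR, beside 3.8%, and 1 in DESeq2, beside 3.68%; the member was Pcdh9 in each. The log2 fold changes (Slm2KO over WT) were above 0 for 17 members and below 0 for 17, beside 53.9% below 0 over all features tested. The median over the members was -0.00558 and the range -0.29 to 0.12, beside a median of -0.0115 over all features tested. For 32 of 34 members the 95% confidence interval lay within 1.5-fold in either direction, beside 16867 of the 25667 features tested. The exceptions were Pcdhb1 and Pcdh12, the 2 genes with the lowest means. The interval lay within 1.2-fold for 17 of 34, beside 8405 of the 25667 features. Those 17 were the joined row, 7 of 21 beta genes and 9 of 12 non-clustered genes. The intervals are not adjusted for the number of genes. Groups did not overlap for 1 of the 34, Pcdh9, beside 2.5% of all features tested, a share close to that of the members.

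**Figure D4:**
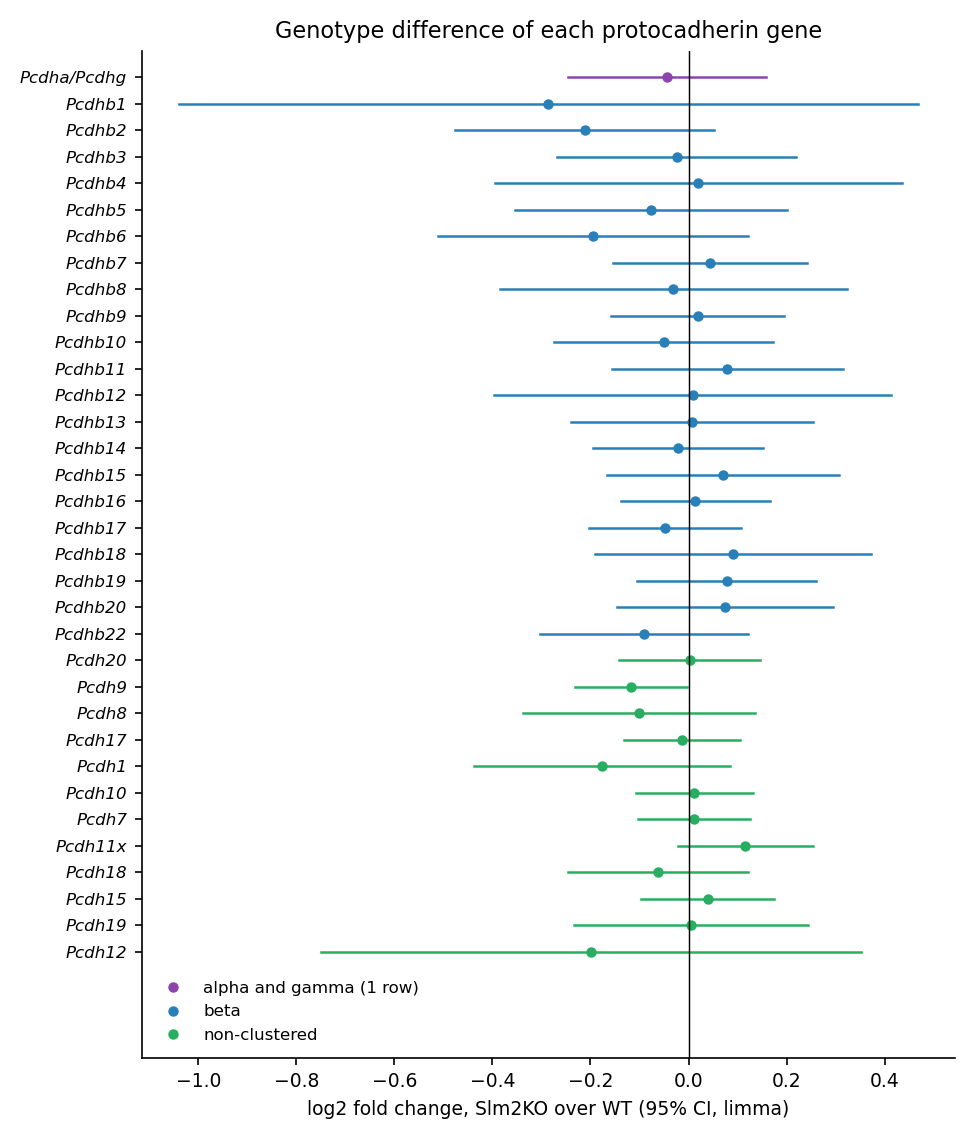
Log2 fold change, Slm2KO-labelled over WT-labelled, of the 34 protocadherin rows (points) with 95% confidence intervals from limma (lines). Each interval but that of Pcdh9 spans 0, and the widest belong to Pcdhb1 and Pcdh12.

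Pcdh9, a delta1 gene (mm10, chr14:93013700-93890669, minus strand), was the member whose groups separated. It had 13199.5, 13016, 12856 and 12226 normalised reads in Slm2KO 1 to 4, against 13339.5, 13568, 13914 and 14847 in WT 1 to 4. Each Slm2KO-labelled library was below each WT-labelled one, although the gap between the nearest libraries was small beside the spread in either group. Its log2 fold change was -0.12 (SE 0.051; fold 0.852 to 0.997, 95% interval), with an unadjusted p of 0.0438 and an adjusted p of 1.00 in limma (exact permutation p = 0.0286, the smallest that 70 assignments can give). The sample numbers in the labels fall in a lower and an upper series, each with 2 libraries of either label. The difference in Pcdh9 was -0.04 in the lower series and -0.20 in the upper. It was -0.05 among libraries without Y-linked reads and -0.24 among those with them, where WT 4 is the single WT-labelled library. Without WT 4, the highest library of Pcdh9, the difference was -0.09.

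The other delta1 genes gave smaller or less even differences. Pcdh11x, an X-linked gene (chrX:120290259-120910619, plus strand), had 2255, 2043, 2417 and 2249 normalised reads in Slm2KO 1 to 4, against 2049, 2042, 2071 and 2095 in WT 1 to 4. The WT-labelled libraries lay close together and 3 of the Slm2KO-labelled ones lay above them, with a log2 fold change of 0.12 (SE 0.062, limma adjusted p = 1.00, exact permutation p = 0.114). The difference was 0.06 among libraries without Y-linked reads and 0.15 among those with them, where WT 4 is the single WT-labelled library. Pcdh1, which is known from airway epithelium as well as brain, had 6171, 6178, 4926 and 4256 reads in Slm2KO 1 to 4, against 6263, 6468, 5518 and 5833 in WT 1 to 4. Its 2 low libraries were Slm2KO 3 and Slm2KO 4. The log2 fold change was -0.18 (SE 0.117), with -0.04 in the lower number series and -0.31 in the upper. These 2 libraries are also the Slm2KO-labelled ones with Y-linked reads. The difference in Pcdh1 was 0.02 among libraries without Y-linked reads and -0.35 among those with them. Number series and Y-linked reads cannot be told apart among Slm2KO-labelled libraries. A second Pcdh1 row shares 1113 bases with the one used and had a mean of 5541 reads. Pcdh7 was among the steadiest members, with 9483 to 10582 reads in Slm2KO-labelled libraries and 9591 to 10199 in WT-labelled ones, and a log2 fold change of 0.01 (SE 0.051).

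The delta2 genes did not separate either. Pcdh8, also called arcadlin, is induced by neuronal activity and takes part in the endocytosis of N-cadherin. It had 8865, 8249, 7541 and 6321 reads in Slm2KO 1 to 4, against 8474, 9240.0, 8101 and 7284 in WT 1 to 4. The groups overlapped and the log2 fold change was -0.10 (SE 0.106). The 8 activity-induced marker genes summed to 42067 to 64232 in Slm2KO-labelled libraries and 40982 to 57507 in WT-labelled ones; none was at 0, 4 had a log2 fold change above 0 and 4 below with a median of 0.03, and their part in the Pcdh8 values was not tested. Pcdh10 and Pcdh17, which bind the WAVE complex, were steady. Pcdh10 had 17040.1 ± 181 reads in Slm2KO-labelled libraries and 16922 ± 1069 in WT-labelled ones (log2 fold change 0.01, SE 0.053), and Pcdh17 had 17830.4 ± 711 and 18007 ± 889 (-0.01, SE 0.053). Pcdh18 had 779 ± 46.4 reads in Slm2KO-labelled libraries and 815 ± 65.6 in WT-labelled ones (-0.06, SE 0.083). Pcdh19, the X-linked gene whose human counterpart is mutated in an epilepsy of females, had 801 ± 59.0 reads in Slm2KO-labelled libraries and 803 ± 109 in WT-labelled ones, with a log2 fold change of 0.0041 (SE 0.107) whose sign turned with the scaling (-0.0063 with TMM factors). All 5 delta2 genes were highest in library WT 2, which was the highest for 29.4% of members and 12.5% of all features tested. The genes share these libraries, so they are not independent.

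Among the other non-clustered genes, Pcdh20 (chr14:88464747-88471397, minus strand) had 38899.7, 42119.6, 39056 and 36169 reads in Slm2KO 1 to 4, against 35686, 40867, 38329.7 and 41109.7 in WT 1 to 4. The groups overlapped over nearly their whole range (log2 fold change 0.0026, SE 0.065, and -0.0079 with TMM factors). Pcdh15, a part of the tip link of hair cells that is also transcribed in oligodendrocyte precursors, had 2982 ± 136 reads in Slm2KO-labelled libraries and 2903 ± 164 in WT-labelled ones (0.04, SE 0.061). Markers of those precursors summed to 37782 to 42666 in Slm2KO-labelled libraries and 40468 to 45181 in WT-labelled ones. All 6 of their log2 fold changes were below 0, beside 53.9% of all features tested, with none past the threshold and no marker at 0. The part of these precursors in the Pcdh15 value was not tested. A second Pcdh15 row upstream had 10.4 to 27.7 reads per library and was not used. Pcdh12, an endothelial protocadherin, had 57.3, 84.2, 62.2 and 62.5 reads in Slm2KO 1 to 4, against 112, 86.8, 62.8 and 53.6 in WT 1 to 4. The spread among WT-labelled libraries covered the Slm2KO-labelled ones (log2 fold change -0.20, SE 0.247). The 8 endothelial markers summed to 9042 to 13891 in Slm2KO-labelled libraries and 11113 to 16094 in WT-labelled ones. All 8 of their log2 fold changes were below 0, beside 53.9% of all features tested, with none past the threshold and no marker at 0. WT 1 was the highest library for both Pcdh12 and the marker sum; the part of endothelial RNA in the Pcdh12 value was not tested.

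No beta gene separated the groups. Of the 21, 11 had a log2 fold change above 0 and 10 below, with a median of 0.00691 and a range of -0.29 to 0.09. The smallest p belonged to Pcdhb2, which had 556, 526, 441 and 477 reads in Slm2KO 1 to 4, against 619, 651, 474 and 582 in WT 1 to 4. Its groups overlapped (log2 fold change -0.21, SE 0.118; limma adjusted p = 1.00, exact permutation p = 0.143). Pcdhb6 had 698, 706, 529 and 459 reads in Slm2KO 1 to 4, against 726, 714, 632 and 627 in WT 1 to 4. Slm2KO 1 and 2 lay among the WT-labelled libraries and Slm2KO 3 and 4 lay below them (-0.19, SE 0.142). The difference in Pcdhb6 was 0.03 among libraries without Y-linked reads and -0.35 among those with them, where WT 4 is the single WT-labelled library. Pcdhb22, the last gene of the array in the table, had 918 ± 91.9 reads in Slm2KO-labelled libraries and 977 ± 88.9 in WT-labelled ones (-0.09, SE 0.095). The 3 beta genes with the most reads varied less than the median beta gene. Pcdhb9 had 2878 ± 274 reads in Slm2KO-labelled libraries and 2834 ± 178 in WT-labelled ones (0.02, SE 0.079), Pcdhb17 had 2674 ± 216 and 2760.1 ± 133 (-0.05, SE 0.070), and Pcdhb16 had 2179 ± 117 and 2160 ± 149 (0.01, SE 0.069). Pcdhb12, the gene with the antisense overlap, had 1667, 1832, 1762 and 995 reads in Slm2KO 1 to 4, against 1698, 1659, 1285 and 1445 in WT 1 to 4, so that 1 library, Slm2KO 4, lay below the other 7. Pcdhb12 was chosen after its values were seen. Pcdhb1 had 22.8 to 42.5 reads in Slm2KO-labelled libraries and 19.1 to 51.6 in WT-labelled ones. The coefficient of variation over the 8 libraries was 5.74% for Pcdhb16 and 35.9% for Pcdhb1, with a median of 11.2% over the beta genes. The median was 6.17% over the non-clustered genes and 12.3% over all features tested.

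The joined alpha and gamma row had a log2 fold change of -0.04 (SE 0.091; fold 0.844 to 1.116, 95% interval; limma adjusted p = 1.00). One library decided its sign: it was 0.04 without Slm2KO 4. The sums of the beta genes and of the non-clustered genes had log2 differences of 0.00432 and -0.02, and 0.06 and 0.00251 without Slm2KO 4. These sums have no test, since the members were chosen with results of these data known.

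Some libraries were the lowest or the highest for a larger share of members than of all features tested. The members share these libraries, so they are not independent. Slm2KO 4 was the lowest library for 14 of 34 members (41.2%), beside 25.7% of all features tested, and the highest for 2. WT 2 was the highest library for 10 of 34 (29.4%, beside 12.5% of all features), and Slm2KO 2 for 11 of 34 (32.4%, beside 13.1%). WT 3 was the lowest for 6 (17.6%, beside 8.57%). Relative to the mean of the other 7 libraries, the median member stood at a log2 value of -0.15 in Slm2KO 4 and -0.07 in WT 3. It was 0.10 in Slm2KO 2 and 0.08 in WT 2, whereas the median of all features lay at -0.02 to -0.0012 in each library. In Slm2KO 4 the deviation was -0.33 for the joined row, -0.17 for the median beta gene and -0.13 for the median non-clustered gene. Choroid plexus markers ran the other way by library: their sum was 3101820 in Slm2KO 4 and 2443820 in WT 3, and 520294 in Slm2KO 2 and 340351 in WT 2. WT 1 did not follow this, with a sum of 2075840 and the median member at 0.04. The sum of hippocampal neuron markers ran the same way as the members in these 4 libraries. It was 435903 in Slm2KO 4 and 506589 in WT 3, and 594791 in Slm2KO 2 and 590259 in WT 2. In WT 1 it was 525300, below Slm2KO 1 and Slm2KO 3, although the median member was higher in WT 1. Camk2a, Slc17a7 and Snap25 made up most of this sum. Slm2KO 4 was the lowest library for 8 of the 12 markers, but Prox1, Bok and Cacng5 were highest in WT 3. The part of either marker list in the protocadherin values was not tested.

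**Figure D5:**
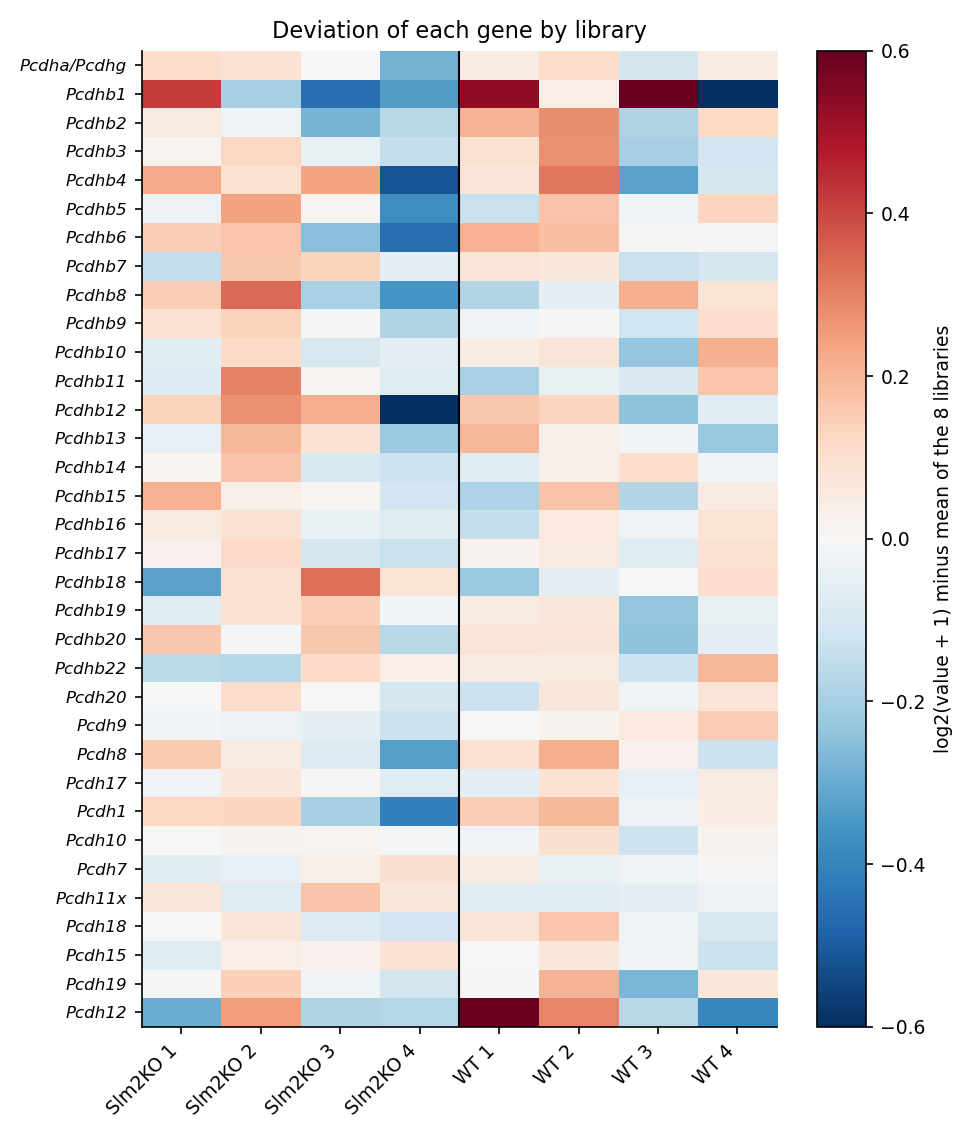
Deviation of each protocadherin row (down) in each library (across; Slm2KO-labelled left of the line, WT-labelled right) from its mean over the 8 libraries, in log2(value + 1), with the colour scale ending at 0.6 in either direction. The column of Slm2KO 4 is below the mean for most clustered and most non-clustered rows. Among the non-clustered genes it is above the mean for Pcdh7, Pcdh11x and Pcdh15. Pcdh9 is the row that splits by label.

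In lists of genes that act on or with protocadherins no gene passed the threshold. Over all features tested, 53.9% had a log2 fold change below 0. The cluster regulators, a list of DNA-binding, cohesin and chromatin factors with roles at the clustered locus, had 24 of 25 members tested, 10 with a log2 fold change above 0 and 14 below, a median of -0.02 and 0 past the threshold. Ctcf and the cohesin gene Rad21, which set promoter choice in the arrays, had log2 fold changes of -0.03 and -0.02; both were named after their values were seen. The smallest p belonged to Ring1, a Polycomb gene, at -0.18 (2901 ± 228 reads in Slm2KO-labelled libraries and 3286 ± 299 in WT-labelled ones), and to the cohesin gene Smc1a at -0.10. Cytoplasmic partners and proteases of protocadherins had 25 of 25 tested, 12 above 0 and 13 below, a median of -0.00135 and 0 past the threshold. In this list Pdcd10, whose protein binds the constant part of the alpha and gamma isoforms, had 3384 ± 146 reads in Slm2KO-labelled libraries and 3072 ± 172 in WT-labelled ones (0.14). Psen2, a catalytic subunit of the gamma-secretase that cleaves protocadherins, had 720.1 ± 56.0 and 815 ± 21.5 (-0.18). Groups did not overlap for these 2 of the 25, beside 2.5% of all features tested, and both had a limma adjusted p of 1.00. Slm2KO 4 was the lowest library for 20 of the 25 partners, beside 25.7% of all features tested. The partners share these libraries, so they are not independent. The list of other cadherins also holds the catenin genes Ctnnb1, Ctnna2, Ctnnd1 and Ctnnd2 and the desmosome gene Dsp, which are not cadherins. This list had 37 of 38 tested, 9 above 0 and 28 below, a median of -0.05 and 0 past the threshold. Fat3, a giant cadherin, had 397 ± 29.6 reads in Slm2KO-labelled libraries and 523 ± 85.6 in WT-labelled ones (-0.38) without overlap, and Dsp, a desmosome gene that marks dentate granule cells, had 4195 ± 463 and 5045 ± 677 (-0.26). Of the marker lists, named by the same rule, the 2 members with the smallest p had log2 fold changes of -0.20 and -0.12 (Aqp4 and Gfap, astrocytes), -0.10 and 0.19 (Slc32a1 and Vip, interneurons), -0.21 and -0.13 (Sox10 and Pdgfra, oligodendrocyte precursors), and -0.30 and -0.29 (Pecam1 and Tie1, endothelium). They had -0.71 and -0.43 for Slc6a13 and Col1a1 (meninges), 0.27 and 0.10 for Cldn2 and Clic6 (choroid plexus), -0.23 and -0.29 for Ptgs2 and Inhba (activity), and -0.26 for Tdo2 beside Dsp (hippocampal neurons). Groups did not overlap for Ptgs2, 1 of 8 activity markers, and for Tdo2, 1 of 12 hippocampal neuron markers, beside 2.5% of all features tested. Log2 fold changes were above 0 for 1 of 6 astrocyte markers (median -0.05), 4 of 8 interneuron markers (median -0.0053), 0 of 6 precursor markers (median -0.14) and 0 of 8 endothelial markers (median -0.24). They were above 0 for 2 of 8 meninges markers (median -0.33), 6 of 10 choroid plexus markers, 4 of 8 activity markers and 1 of 12 hippocampal neuron markers (median -0.11), and below 0 for the others. None passed the threshold.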

How the data were processed

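Gene expression was measured by RNA-seq in 8 hippocampus libraries, built with Illumina's TruSeq RNA kit from Trizol-extracted total RNA. That kit does not mark strand. The authors deposited signal values, 1 for each gene in each library. They are read counts scaled with DESeq, per the submitters' processing notes, which also name FastQC, Picard and SAMtools. The sources used here do not give the aligner, the counter or the rule for reads in overlapping rows. Those notes name hg19, but the file headers give mm10, and mm10 was taken. Within 0.001 of a read, 100% of the deposited values were whole multiples of 1 step per library, so reads could be recovered.

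The labels were compared on log2(value + 1) in limma 3.58.1 (run in R 4.3.3, trended prior), for the 25667 features with a mean of at least 10, with Benjamini-Hochberg adjustment over all of them and a threshold of 0.05. Fold changes are on that scale, which understates changes of low genes. An exact permutation test (two-sided, 8 values) was added for single genes. Procedures were tested on simulated data. Alternatives, 22 in all, used other pseudocounts, filters, scalings and covariates, edgeR (4.0.16), DESeq2 (1.42.0), the replicate number as a block or fewer libraries. Replicates in a group differed beyond counting error (a chi-square of 18.8 to 149 per degree of freedom), and p-values measure the spread between these libraries. Exon lengths and 50-base stretches came from GENCODE vM21, promoters from RefSeq. Figures were made in matplotlib 3.10.9 under Python 3.11.15.

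The members, the lists and the tests were chosen with earlier results of these data known. The rule named all non-clustered genes, the C-type genes, in each array the 3 genes with the highest mean and the 3 with the smallest p, genes past the threshold or without overlap, and of each list the members past the threshold or the 2 with the smallest p.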

Additional observations from a re-analysis of the deposited data

How the results depend on the processing

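None of the 34 members passed the threshold under any of the 22 alternatives. Of 418 recomputed fold changes of the 19 protocadherin rows named by the rule, 389 kept their direction and 29 turned their sign, all without passing the threshold. The count over all features was 1, and it was 2 with a pseudocount of 10, 0 without the trend, 9 with DESeq2 and 0 to 2 with a library left out. With the replicate block the count of features stayed at 1 and that of members at 0; deviations of same-numbered libraries correlated at 0.124 and 0.323 for numbers 1 and 2, each best with its own number, and at -0.0654 and -0.122 for numbers 3 and 4, so not every pair was above 0.1 and the numbers were not taken to pair the libraries. The ratio of the median level per kilobase, beta over non-clustered, was 0.308, and 8.29 with the row span as length, since non-clustered rows hold long introns. Signs turned as follows, and the cause was not tested. With TMM factors, under which the median of all features was -0.0218 against -0.0115, Pcdh20 was -0.00787 and Pcdh19 -0.00628. Pcdh19 was -0.0029 with edgeR and -0.0028 with DESeq2. With array weights the joined row was 0.00267, Pcdh7 -0.00141 and Clic6 -0.0438. A covariate for Y-linked reads gave -0.0079 for Pcdh7 and -0.106 for Clic6. Without the libraries of lowest and highest Ttr the joined row was 0.0738, Pcdh8 0.0471, Pcdh17 0.0352, Pcdh18 0.0108, Pcdh7 -0.0331, Cldn2 -0.801 and Clic6 -0.966. With a library left out, values ran between -0.0872 and 0.0439 for the joined row, -0.0230 and 0.0827 for Pcdhb9, -0.0311 and 0.0436 for Pcdhb16, -0.0371 and 0.0127 for Pcdh17, -0.0393 and 0.0389 for Pcdh20, -0.0272 and 0.0462 for Pcdh10, -0.0199 and 0.0328 for Pcdh7, -0.0871 and 0.0732 for Pcdh19, -0.397 and 0.625 for Cldn2, and -0.479 and 0.565 for Clic6. Pcdh9 stayed below 0 in all 22, between -0.137 and -0.0858, and had an unadjusted p under 0.05 in 12. Khdrbs2 had an adjusted p of 0.0528 to 0.0769 in limma without Slm2KO 1, Slm2KO 3, WT 1 or WT 4 in turn, and 0.172 without the trend. DESeq2 called Khdrbs3 higher in Slm2KO-labelled libraries (adjusted p = 0.0255). Depth limits Pcdhb1 and Pcdh12, with 19.1 to 51.6 and 53.6 to 112 reads over the libraries.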
